A study of Mus musculus with 6 samples.

Results

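The Kelch-like (Klhl) genes encode adaptor proteins that pair a BTB domain, which binds the cullin CUL3, with a BACK domain and a set of kelch repeats that hold the protein to be ubiquitinated. As part of CUL3 ubiquitin ligases they set the stability or the location of actin regulators, mitotic kinases, signalling proteins and coat proteins, and several members are known mainly from neurons, muscle, germ cells or B lymphocytes. The family was taken as every gene named alone by a probe set of the platform annotation under a symbol of the form Klhl and a number. This gave 33 genes of the 18193 measured, with 58 probe sets of 45037. The family was chosen by its symbols, and was selected on a measured value, the level of Klhl4 at the floor of the Lig4mut arrays, so the values of Klhl4 between the genotypes are given below as a description without a test.

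Expression was measured in haematopoietic stem cells (HSC) of Lig4mut mice and of their wild-type littermates (WT, Lig4+/+), both obtained by intercrossing Lig4mut/+ mice. The cells were sorted from bone marrow at 6 to 8 weeks of age as CD150+ CD48- KSL cells, a gate that enriches for long-term stem cells. There were 3 arrays of each genotype, which the design text calls biological replicates, on a 1-colour mouse array, and nothing says whether an array stands for 1 mouse or a pool. Lig4 encodes the DNA ligase of non-homologous end joining, and the labels do not describe the Lig4mut allele further.

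Values are log2 expression per probe set with a floor at 3, below which nothing was recorded, and each gene is represented by its probe set with the highest mean. The Lig4 probe set was lower in every Lig4mut array than in any WT array, with a log2 difference of -3.53 ± 0.61 (SE). Across probe sets, arrays correlated at r = 0.849 to 0.864 within Lig4mut, 0.940 to 0.950 within WT and 0.866 to 0.90 between the genotypes, so the Lig4mut arrays were less like each other than like the WT arrays. The mean log2 level of 8 measured stem cell markers was 9.53 to 10.25 in Lig4mut and 10.42 to 10.53 in WT. Of the 8, 6 were lower in Lig4mut and 2 higher. At an unadjusted p under 0.05 by limma 2 were lower, as were 4.18% of all genes. Lower without overlap of the arrays were 3, against 5.65% of all genes. Lig4mut replicate 2 stood apart with a mean of 10.71 over 8 granulocyte markers, against 6.24 and 6.90 in the other Lig4mut arrays and 8.29 to 9.24 in WT. The mean over 7 macrophage and dendritic cell markers was 7.82 to 8.29 in Lig4mut and 6.77 to 7.13 in WT, with all 7 higher in Lig4mut, 6 of them at an unadjusted p under 0.05 by limma, a direction in which 15.5% of all genes passed. The mean over 6 endothelial markers was 8.74 to 9.71 in Lig4mut and 7.36 to 8.94 in WT, with all 6 higher in Lig4mut and 1 at that p. None of these 13 markers was at the floor in any array, and their part in the higher values of Klhl genes below was not tested. Marker values here and below are given only after the arrays were quantile normalized. The median deposited value was 5.97 to 6.05 in the Lig4mut arrays and 6.29 to 6.34 in WT. The part of the scaling in the marker differences was not tested. By Xist, Lig4mut replicate 2 and WT replicate 3 came from female cells (12.33 and 12.52), and the other 4 arrays lay between 4.84 and 5.82. Fewer cells of a type and less RNA per cell cannot be told apart in such bulk samples.

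Klhl4 is the member whose level set the choice of the family. Its start region is printed here beside those of Klhl36, a member with higher values in every Lig4mut array, and Klhl6, a member known from blood cells. Each line runs from 250 bases before to 50 bases after the RefSeq transcription start (GRCm38.p6). Capitals mark matches, on either strand, to 6 short motifs. The general promoter elements searched were the GC box, whose letters are GGGCGG, then the TATA box, whose letters are TATAAA, and the CCAAT box. The core words of blood transcription factors were TGTGGT for the RUNX family, then AGATAA for the GATA family, and as the last of these CCGGAA for the ETS family. In the windows printed no match overlaps another.
Klhl4 (chrX:114474083-114474382, plus strand): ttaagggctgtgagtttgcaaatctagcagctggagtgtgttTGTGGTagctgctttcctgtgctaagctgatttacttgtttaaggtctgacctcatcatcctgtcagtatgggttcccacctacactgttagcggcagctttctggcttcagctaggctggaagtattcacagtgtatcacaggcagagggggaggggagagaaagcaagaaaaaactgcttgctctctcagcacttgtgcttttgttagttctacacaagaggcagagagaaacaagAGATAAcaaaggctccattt
Klhl36 (chr8:119862055-119862354, plus strand): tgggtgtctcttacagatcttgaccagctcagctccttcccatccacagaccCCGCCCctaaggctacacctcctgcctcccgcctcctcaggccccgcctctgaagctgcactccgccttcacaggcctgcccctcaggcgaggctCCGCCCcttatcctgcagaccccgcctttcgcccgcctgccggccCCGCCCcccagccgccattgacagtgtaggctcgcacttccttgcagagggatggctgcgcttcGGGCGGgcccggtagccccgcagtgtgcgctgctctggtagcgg
Klhl6 (chr16:19983000-19983299, minus strand): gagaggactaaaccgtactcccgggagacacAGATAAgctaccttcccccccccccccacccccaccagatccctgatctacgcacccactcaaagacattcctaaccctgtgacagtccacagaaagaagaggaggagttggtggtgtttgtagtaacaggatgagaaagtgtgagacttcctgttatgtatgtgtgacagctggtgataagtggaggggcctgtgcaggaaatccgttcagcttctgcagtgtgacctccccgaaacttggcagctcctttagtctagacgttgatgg

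The window of Klhl4 holds 1 CpG dinucleotide, and 14.1% of the 32851 mouse windows of this length hold as few. That of Klhl36 holds 20 and that of Klhl6 holds 6. Over the 38 windows found for 28 of the 33 members the count ran from 0 to 54 with a median of 16.5, against a median of 7 over all windows. The GC box was present in 65.8% of the member windows and 35.7% of all windows, the RUNX word in 5.26% and 16.8%, the GATA word in 7.89% and 11.2%, and the ETS word in 28.9% and 14.9%. The TATA box was in 10.5% and 13.6%, and the CCAAT box in 23.7% and 37.4%. Windows of the same gene can overlap, so a site can count more than once. Counted by gene, the GC box was found for 21 of 28, the ETS word for 9 and the CCAAT box for 8. The TATA box was found for 4 genes, the GATA word for 3 and the RUNX word for 2. These are matches of letters only.

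Klhl4 was at the floor, 3, in all 3 Lig4mut arrays, against 7.37, 7.88 and 7.41 in WT replicates 1, 2 and 3. The WT values kept to a narrow band that held the female array and both male arrays, and no Lig4mut array lay above the floor. Klhl4 lies on the X chromosome. As deposited, before any further scaling, its WT values were 7.49, 7.97 and 7.51. The log2 difference of -4.55 is a lower bound in size, since the floor hides how far below 3 the Lig4mut values were.

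Of all genes measured, 8 lay at the floor in every Lig4mut array and in no WT array. Klhl4 had the highest WT mean of these, 7.55, ahead of Ninl at 4.90. This rank is a description only, since the floor values of Klhl4 chose the family. In the opposite pattern, with WT at the floor in every array and no Lig4mut array there, stood 10 genes, and none of these was a Klhl gene. The second, dimmer probe set of Klhl4 was at 3, 3.10 and 3 in Lig4mut, against 3.21, 4.0 and 3.39 in WT. It too lay lower in every Lig4mut array than in any WT array, but close to the floor in both genotypes, with a difference of -0.50.

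Klhl1 and Klhl5 encode the closest relatives of the Klhl4 protein, KLHL1 being an actin-binding protein of neurons. Klhl5 was at 8.05, 8.38 and 6.09 in Lig4mut, against 6.89, 7.27 and 6.58 in WT, a difference of 0.59 ± 0.66 (SE, n = 3 per genotype). The genotypes overlapped, with Lig4mut replicate 3 below all WT arrays and the other 2 Lig4mut arrays above them. Its other probe set gave 3.83, 7.28 and 5.09 in Lig4mut and 6.78, 6.75 and 7.32 in WT, a difference of -1.55 ± 0.92 of the opposite sign. Klhl1 was at 5.28, 6.12 and 4.98 in Lig4mut and 4.98, 5.61 and 5.14 in WT (0.22 ± 0.36), and its arrays overlapped. Neither relative was at the floor in any array.

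**Figure D1:**
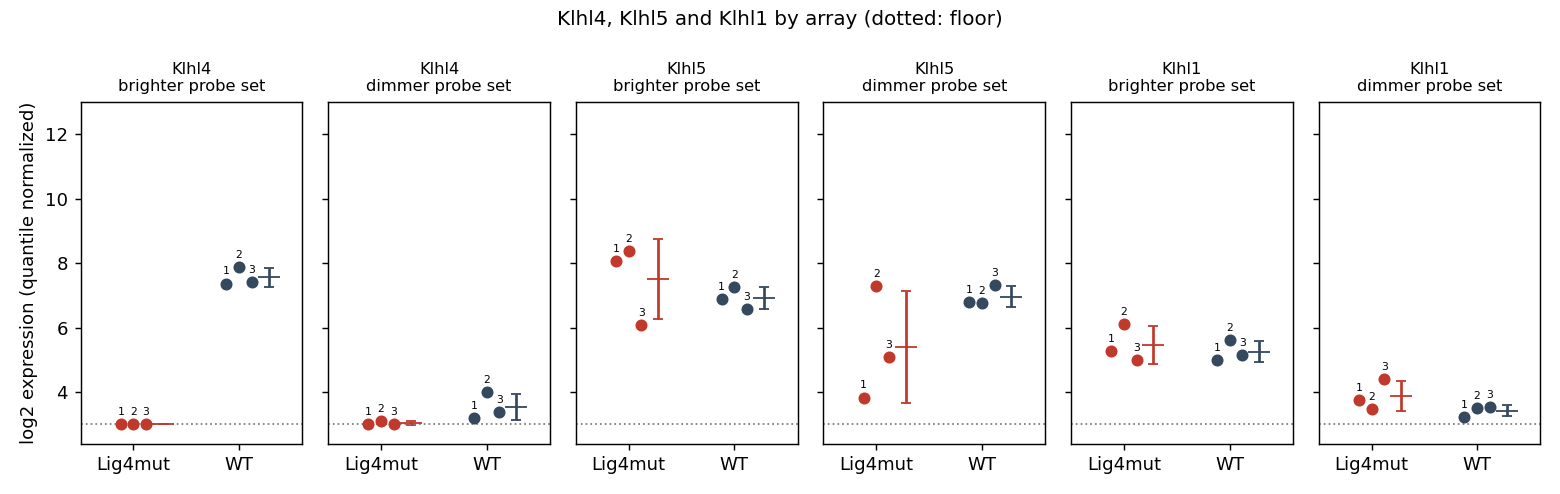
Log2 expression of the probe sets of Klhl4, Klhl5 and Klhl1 (y axis) in the Lig4mut and WT arrays (x axis), 1 point per array with its replicate number, and the mean with its SD (n = 3) beside the points. The brighter Klhl4 probe set sits on the floor of 3 in Lig4mut and between 7.37 and 7.88 in WT, while both probe sets of Klhl5 overlap between the genotypes.

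The other 32 members were called at a rate near that of the whole table. By limma 5 of 32 had an unadjusted p under 0.05 (15.6%), against 19.7% of all genes, all 5 with higher values in Lig4mut, a direction in which 15.5% of all genes passed. None of the 32 passed the threshold after Benjamini-Hochberg adjustment over all genes, which 0.0110% of genes did. The arrays of the genotypes did not overlap for 7 of 32 (21.9%), against 26.7% of all genes, and the 7 were all higher in Lig4mut. Of all genes, 21.0% were without overlap and higher, and 5.65% without overlap and lower. With the values as deposited the whole family of 33, Klhl4 included, had 4 members without overlap, against 18.5% of all genes. It then had 3 at an unadjusted p under 0.05 by limma, or 2 without Klhl4, against 12.2%. Of all genes called at that p, 78.8% were higher in Lig4mut, and 55.2% with the values as deposited, 87.6% with median centring and 68.5% with cyclic loess. The members called, Klhl4 apart, were all higher under each, but numbered only 5, 2, 6 and 3 in that order. Over probe sets, 3 of the 11 called without Klhl4 were lower. Without Lig4mut replicate 1 the family of 33, Klhl4 included, had 15 members without overlap, against 41.1% of all genes.

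The differences themselves scattered on both sides of 0. Of the 33, 22 were above 0 and 11 below, or 66.7% above 0 against 62.9% of all genes. Their median was 0.28, and 0.10 once the median of all genes, 0.18, was taken off. As deposited the family median was 0.06 and that of all genes 0.02, and leaving out Klhl4, 59.4% of members and 52.9% of all genes were then above 0. Without Lig4mut replicate 2 the relative median was -0.0022, without WT replicate 1 it was -0.093, and with the probe sets of each gene averaged it was -0.085. Without Klhl4, 7 of 32 members had an absolute log2 difference over 1 (21.9%), against 13.4% of all genes.

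**Figure D2:**
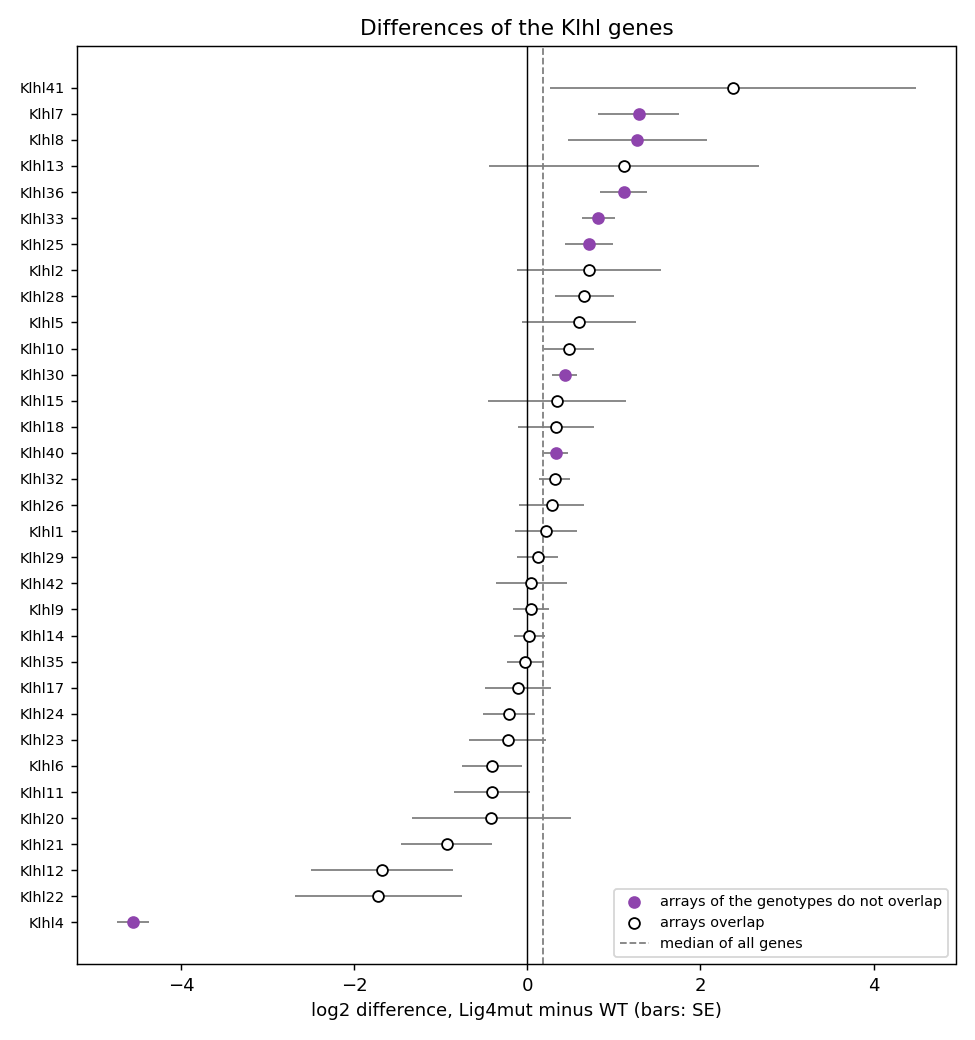
Log2 difference, Lig4mut minus WT, of each of the 33 Klhl genes (x axis, bars SE, n = 3 per genotype), ordered by size, with filled points where the arrays of the genotypes do not overlap. Klhl4 stands apart at -4.55, where its bar does not show that the value is a bound, and the next lowest are Klhl22 and Klhl12 near -1.7, with open points.

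Of the members with no client named here, Klhl36 and Klhl33 had the smallest p of the 32. Klhl36 was at 8.18, 8.27 and 8.31 in Lig4mut, against 6.65, 7.13 and 7.64 in WT. Every Lig4mut array was above every WT array, and the Lig4mut values were the tighter group. The difference was 1.11 ± 0.28 (SE), 2.16-fold, with an unadjusted p of 0.00905 by limma that did not pass over all genes (adjusted p = 0.151). It ranged from 0.867 to 1.36 over the alternatives run.

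Klhl33 was at 5.58, 5.00 and 5.14 in Lig4mut and at 4.41, 4.36 and 4.48 in WT. The groups did not overlap, at a low level in both. The difference was 0.82 ± 0.19 (limma, unadjusted p = 0.00719, adjusted p = 0.148). Klhl30 lay lower still, with 4.02, 3.93 and 4.02 in Lig4mut, against 3.46, 3.77 and 3.43 in WT (0.43 ± 0.15, unadjusted p = 0.0299, adjusted p = 0.208). Klhl33 and Klhl30 have 1 probe set each, as has Klhl36. With the values as deposited the differences were 0.558 for Klhl33 (unadjusted p = 0.0367) and 0.255 for Klhl30 (unadjusted p = 0.155), whose arrays then overlapped.

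Klhl7, which is mutated in an inherited retinal degeneration in humans, was at 7.84, 9.40 and 8.78 in Lig4mut, against 7.47, 7.77 and 6.91 in WT. The groups were separated by a narrow gap between Lig4mut replicate 1 and WT replicate 2, and in the values as deposited these arrays overlapped, at 7.81 and 7.87 (difference 1.15, unadjusted p = 0.0567). The difference was 1.29 ± 0.47 (limma, unadjusted p = 0.0382, adjusted p = 0.227), and its other probe set gave 0.97 ± 0.58. Klhl25, the adaptor that brings the translation repressor 4E-BP1 to CUL3 in human cells, was at 8.45, 9.27 and 8.49 in Lig4mut and at 7.82, 8.24 and 8.00 in WT. Its difference was 0.72 ± 0.28 (limma, unadjusted p = 0.0477, adjusted p = 0.249; unadjusted p = 0.0824 as deposited), and its other probe set gave 0.54 ± 0.36 with overlapping arrays.

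Klhl8 also separated, with 7.38, 10.10 and 7.47 in Lig4mut, against 6.82, 7.36 and 6.95 in WT. As deposited its arrays overlapped, with 7.33, 10.14 and 7.31 in Lig4mut, against 6.98, 7.49 and 7.08 in WT. Most of its difference, 1.27 ± 0.80 (unadjusted p = 0.17), lay in Lig4mut replicate 2, and its other probe set gave -0.19 ± 0.25. The C. elegans counterpart of Klhl8 acts on rapsyn at the synapse. The remaining member without overlap was Klhl40, described with the muscle genes below.

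**Figure D3:**
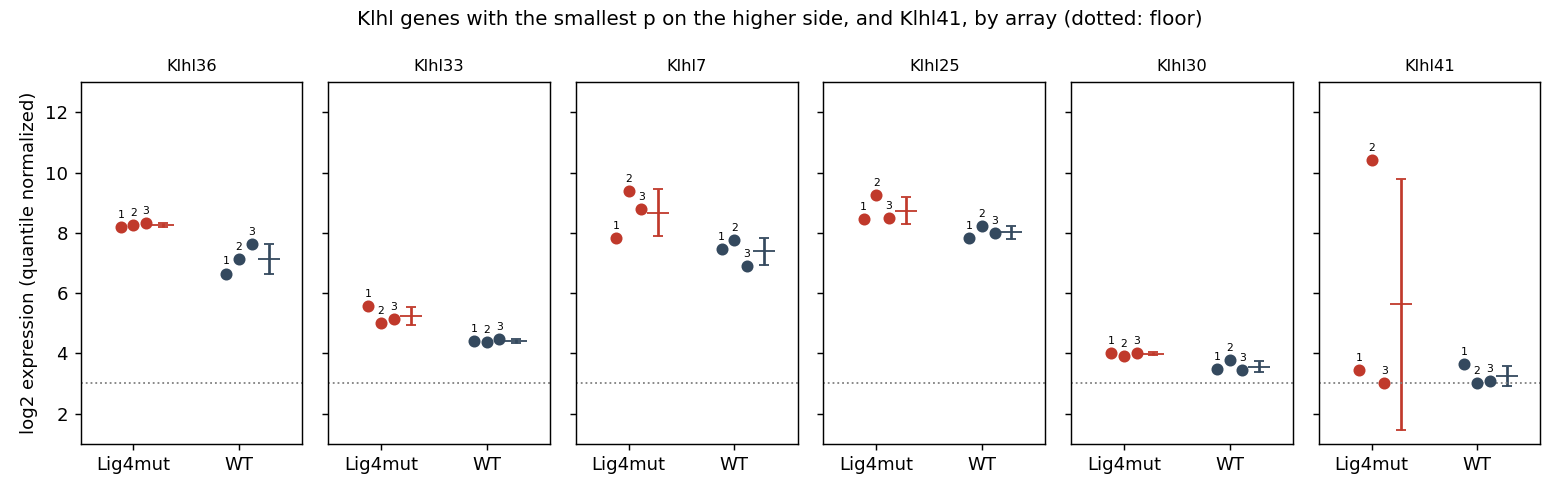
Log2 expression (y axis) of Klhl36, Klhl33, Klhl7, Klhl25, Klhl30 and Klhl41 in the Lig4mut and WT arrays (x axis), 1 point per array with its replicate number, and the mean with its SD (n = 3). The Lig4mut arrays lie above the WT arrays in the first 5 genes, and for Klhl41 a single Lig4mut array, at 10.42, lies far above the other 5.

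Among the 6 adaptors of cell division 0 had an unadjusted p under 0.05 by limma at the gene level, against 19.7% of all genes. In human cells KLHL9, KLHL13 and KLHL21 act with CUL3 on Aurora B, KLHL18 on Aurora A, KLHL22 on the kinase PLK1, and KLHL42 on the microtubule-severing enzyme katanin. Klhl9 was the steadiest of them, with 11.07, 10.63 and 10.67 in Lig4mut, against 10.64, 10.57 and 11.03 in WT (0.04 ± 0.21). Klhl22 had 4.93, 6.92 and 8.65 in Lig4mut, against 8.23, 8.93 and 8.51 in WT, so that 2 Lig4mut arrays lay below all WT arrays and replicate 3 within them (-1.72 ± 0.96). Its other probe set differed by 0.08 ± 0.23.

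Klhl21 had 9.65, 7.65 and 8.60 in Lig4mut, against 9.36, 9.74 and 9.60 in WT (-0.93 ± 0.53). Its dimmer probe set ran the other way without overlap, with 6.47, 6.43 and 6.23 in Lig4mut, against 5.45, 5.43 and 6.02 in WT (0.74 ± 0.20, limma over probe sets, unadjusted p = 0.0154, adjusted p = 0.187). The probe sets of Klhl21 therefore gave no common direction. Klhl13, on the X chromosome, was at 9.60 in Lig4mut replicate 1 and at 4.27 and 4.54 in the other Lig4mut arrays, against 4.32, 5.17 and 5.59 in WT. That high value was not seen with its other probe set, which gave 4.22, 4.41 and 4.48 in Lig4mut and 4.22, 4.97 and 4.69 in WT. Klhl18 and Klhl42 differed by 0.33 ± 0.44 and 0.05 ± 0.41.

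The members known from B lymphocytes did not differ beyond the spread of the arrays. Klhl6, which acts in B cell receptor signalling and germinal centre formation in mice, was at 9.94, 8.91 and 8.94 in Lig4mut, against 9.97, 9.50 and 9.54 in WT. Lig4mut replicate 1 lay within the WT range and the other 2 below it (-0.41 ± 0.34). Klhl14 stayed between 3.38 and 3.89 in Lig4mut and between 3.56 and 3.78 in WT, near the floor in both (0.03 ± 0.18). Over 7 measured B cell markers the mean level was 6.08, 6.73 and 7.02 in Lig4mut and 5.92 to 6.05 in WT. All 7 lay above 0 in their difference, as did 62.9% of all genes, and 4 were higher at an unadjusted p under 0.05 by limma, as were 15.5% of all genes. Cd79a was between 5.25 and 5.81 in all 6 arrays, and Ms4a1 was at the floor in 1 array. The part of the scaling in these marker differences was not tested.

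Klhl40 and Klhl41 encode muscle proteins that stabilise the thin filament and are mutated in human nemaline myopathy, and Klhl10 is needed in mouse spermatids. Klhl40 was at 5.17, 5.31 and 5.21 in Lig4mut, against 4.83, 4.81 and 5.07 in WT. The groups were separated by a narrow gap, and the difference was 0.33 ± 0.14 at the gene level (limma, unadjusted p = 0.0605, adjusted p = 0.276). With the values as deposited it was 0.0521, and the arrays overlapped. Klhl41 was at 10.42 in Lig4mut replicate 2, at 3.46 and 3 in the other Lig4mut arrays, and at 3.64, 3.02 and 3.09 in WT, so the other 5 arrays were all near the floor. Its difference of 2.37 ± 2.11 rests on that array. Klhl10 differed by 0.48 ± 0.29, with overlapping arrays.

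The differences of the 6 skeletal muscle markers were all above 0, against 62.9% of all genes, and 4 were higher at an unadjusted p under 0.05 by limma, against 15.5% of all genes. Their mean level was 6.57, 7.11 and 6.63 in Lig4mut and 5.78, 5.83 and 6.26 in WT. One of them, the troponin gene Tnnc2, was at 9.67 in Lig4mut replicate 2 and at 6.94 and 6.57 in the other Lig4mut arrays, against 5.75 to 6.79 in WT. Of the Lig4mut arrays replicate 2 was the highest for 3 of the 6, Tnnc2, Myh4 (5.84) and Mylpf (6.33), and the lowest for the actin gene Acta1 (6.23) and the creatine kinase gene Ckm (6.46), with Tnni2 between the others. None of the 6 was at the floor in any array. The part of other cells, and of the granulocyte signal of the same array, in the values of Klhl40 and Klhl41 was not tested. Nor was the part of the scaling in the differences of the muscle markers.

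The remaining adaptors with known clients overlapped between the genotypes. Klhl12, which directs CUL3 to the coat protein SEC31 and to Dishevelled in human cells, had 6.59, 4.18 and 6.28 in Lig4mut, against 7.79, 7.99 and 6.29 in WT (-1.67 ± 0.82, limma, unadjusted p = 0.094). WT replicate 3 lay within the Lig4mut range and the other WT arrays lay above it. Klhl20, an adaptor for the death-associated kinase DAPK in human cells, had 7.43, 9.95 and 9.96 in Lig4mut and 10.30, 9.98 and 8.31 in WT (-0.42 ± 0.92). Klhl17, known as actinfilin in rat neurons, differed by -0.11 ± 0.38, and its other probe set by -0.92 ± 0.38.

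Klhl24, an adaptor for keratin 14 in human skin, has 5 probe sets, and all 5 were lower in Lig4mut. The brightest had 11.56, 10.67 and 11.44 in Lig4mut, against 11.73, 11.22 and 11.36 in WT (-0.21 ± 0.30). The differences of the other 4 ran from -0.47 to -1.54. The last of these was without overlap, with 9.34, 9.23 and 7.30 in Lig4mut, against 9.92, 10.20 and 10.36 in WT, and had an unadjusted p of 0.0539 by limma over probe sets (adjusted p = 0.293).

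Probe sets of the same member often disagreed. Of 18 members with more than 1 probe set, 10 had differences of both signs (55.6%), against 4502 of the 9010 genes of that kind in the whole table. The median span between a member's lowest and highest probe set was 1.35 on the log2 scale, against 0.76 over all such genes. Over all 58 probe sets, 32 were above 0. Leaving out Klhl4, 11 of 56 had an unadjusted p under 0.05 by limma (19.6%), 8 higher and 3 lower, against 17.6% of all probe sets, 12.1% higher and 5.57% lower. None of the 58 passed adjusted over all probe sets, where 0 probe sets of the table did, although 7948 had an unadjusted p under 0.05. The arrays did not overlap for 13 of the 56 (23.2%), against 23.8% of all probe sets.

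Klhl28 had the widest span of the 18 members, with 4 probe sets that ran from -3.45 to 1.37. One of them had 4.25, 3.91 and 3.13 in Lig4mut, against 8.09, 6.14 and 7.40 in WT. This probe set separated the genotypes by a wide gap (-3.45 ± 0.60, limma over probe sets, unadjusted p = 0.00224, adjusted p = 0.118). The brightest probe set of Klhl28 had 8.94, 9.50 and 9.43 in Lig4mut and 9.29, 8.30 and 8.30 in WT (0.66 ± 0.35), with 1 WT array inside the Lig4mut range. Another differed by 1.37 ± 0.95, and the dimmest was at the floor in all 3 Lig4mut arrays and in 1 WT array. Which transcripts each probe set detects was not analysed here.

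Klhl2, an adaptor for WNK kinases, and Klhl15, an adaptor for a regulatory subunit of the phosphatase PP2A in human cells, showed the same kind of split. The brighter probe set of Klhl2 had 9.22, 11.12 and 7.91 in Lig4mut and 8.73, 8.55 and 8.84 in WT (0.71 ± 0.83). Its dimmer probe set had 3, 3 and 4.69 in Lig4mut, against 6.48, 4.85 and 5.65 in WT. In that probe set all Lig4mut arrays were lower and 2 of them were at the floor, so the difference of -2.10 is a lower bound in size (limma over probe sets, unadjusted p = 0.0253, adjusted p = 0.217).

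Klhl15, on the X chromosome, had 6.60, 5.14 and 3.52 in Lig4mut and 4.98, 4.46 and 4.78 in WT with its brighter probe set (0.35 ± 0.79). With the dimmer one it had 4.45, 4.49 and 3.95 in Lig4mut, against 5.58, 5.51 and 5.34 in WT (-1.18 ± 0.19, limma over probe sets, unadjusted p = 0.00155, adjusted p = 0.112). The dimmer probe set thus separated the genotypes and the brighter one did not. Klhl11 was at -0.41 ± 0.44 with its brightest probe set and at 0.68 ± 0.32 and 0.65 ± 0.25 with the others, the last with 6.96, 6.89 and 7.60 in Lig4mut, against 6.32, 6.43 and 6.76 in WT (unadjusted p = 0.0487, adjusted p = 0.28).

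**Figure D4:**
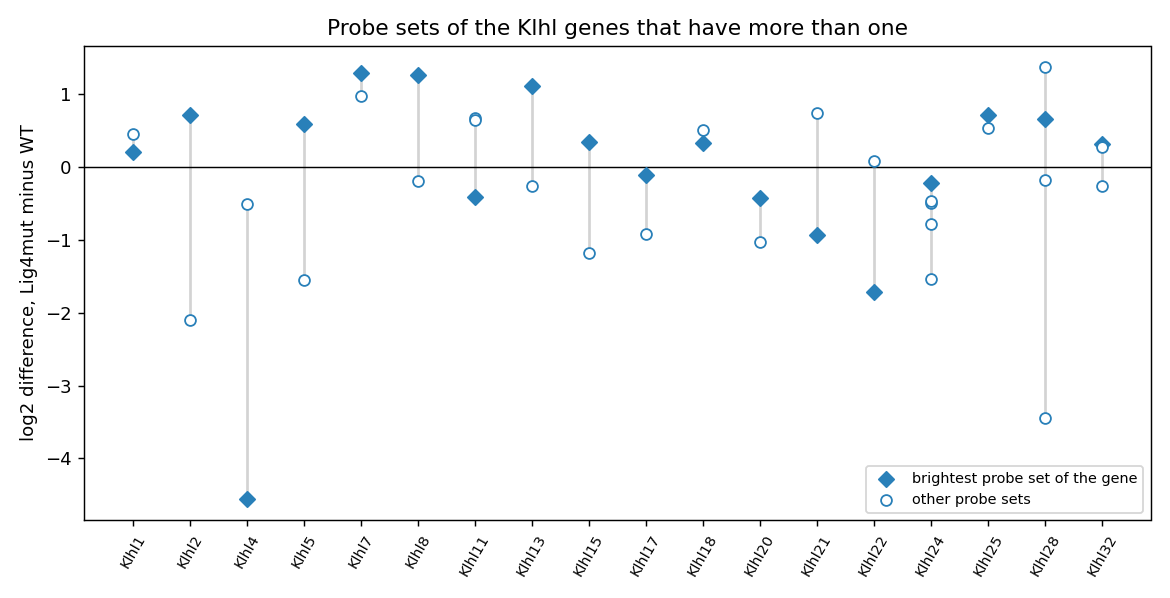
Log2 difference, Lig4mut minus WT (y axis), of every probe set of the 18 Klhl genes with more than 1 (x axis), with a diamond for the brightest probe set of a gene and circles for the others. The probe sets lie on both sides of 0 for 10 of the 18 genes, and the 5 of Klhl24 all lie below it.

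Of the members not yet described, Klhl23, Klhl26, Klhl29, Klhl32 and Klhl35 all had overlapping arrays, with differences from -0.23 to 0.32. Klhl29 was at the floor in 2 Lig4mut arrays and 1 WT array. Klhl35 was at 5.44 to 5.76 in Lig4mut and 5.41 to 6.01 in WT, close to equal on average (-0.02 ± 0.21). Leaving out Klhl4, 2 of 32 members (6.25%) touched the floor in some array, Klhl29 and Klhl41, against 5.52% of all genes.

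Like most genes of the whole table, most members varied more between Lig4mut arrays than between WT arrays. Klhl4 has an SD of 0 in Lig4mut only because all 3 values were at the floor. The SD was the larger in Lig4mut for 24 of 33 (72.7%), against 69.9% of all genes, and its median was 0.59 in Lig4mut and 0.28 in WT, against 0.45 and 0.28 over all genes. An SD over 1 was found for 9 members in Lig4mut and 1 in WT, or 27.3% and 3.03%, against 19.8% and 5.59% of all genes. The 9 were Klhl41 (4.16), Klhl13 (3.00), Klhl22 (1.86), Klhl2 (1.62), Klhl8 (1.54), Klhl15 (1.54), Klhl20 (1.46), Klhl12 (1.31) and Klhl5 (1.24). Of the 3 Lig4mut arrays replicate 2 was the highest for Klhl41, Klhl2, Klhl8 and Klhl5, replicate 1 for Klhl13, Klhl15 and Klhl12, and replicate 3 for Klhl22 and Klhl20.

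**Figure D5:**
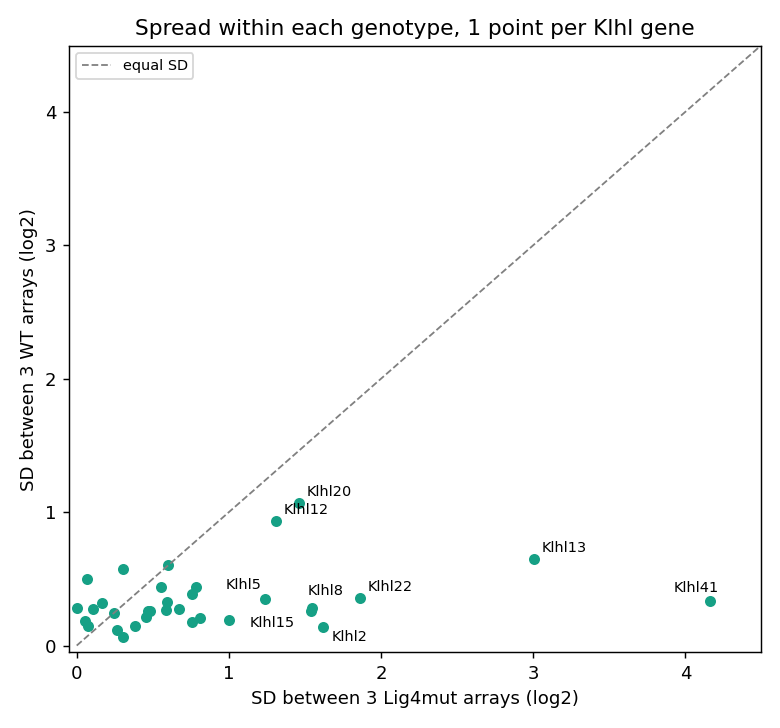
SD between the 3 Lig4mut arrays (x axis, log2) and between the 3 WT arrays (y axis, log2), 1 point per Klhl gene, with names where the SD is over 1 in Lig4mut or over 0.8 in WT. Of the 33 points 24 lie below the line of equal SD, with Klhl41 at 4.16 and Klhl13 at 3.00 in Lig4mut the farthest out.

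The machinery that the Klhl proteins work in was described from a list. Of 65 listed genes of the CUL3 ligase, its activation by NEDD8, the COP9 signalosome, kelch relatives and known clients, 59 were measured and 4 had an unadjusted p under 0.05 by limma (6.78%), against 19.7% of all genes. None passed over all genes. Their median difference was -0.09, or -0.26 relative to all genes, and the arrays did not overlap for 7 of the 59 (11.9%), against 26.7% of all genes. The count of the 59 at an unadjusted p under 0.05 by limma was 4 with the values as deposited, against 12.2% of all genes. With dim genes left out it was 3 of 51, against 13.3%. It was 11 of 59 without Lig4mut replicate 1, against 22.5%, and 8 without Lig4mut replicate 2, against 19.3%. With the replicate block it was 7, against 15.8%.

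Of the 22 core, neddylation and COP9 genes, Cops7a, a signalosome subunit, alone was under that p. It had 11.49, 11.78 and 11.26 in Lig4mut, against 10.87, 10.69 and 10.58 in WT (0.80 ± 0.19, adjusted p = 0.148). Among 12 other BTB-kelch genes it was Kbtbd4, with 7.89, 7.73 and 8.08 in Lig4mut, against 8.81, 8.42 and 8.75 in WT (-0.76 ± 0.18, adjusted p = 0.147). Among 7 kelch genes without a BTB domain these were Klhdc8a (0.65 ± 0.12, adjusted p = 0.135) and Klhdc10, a substrate receptor of CUL2 ligases (1.04 ± 0.39, adjusted p = 0.239). Of the 18 measured clients, which include the kinases Aurkb, Aurka, Plk1 and Wnk1, 0 had an unadjusted p under 0.05, with 11 above 0 and a median of 0.18, equal to that of all genes.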

How the data were processed

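The authors deposited RMA values on the log2 scale, 1 per probe set, per the submitters' processing notes, where RMA has no version. On every array the lowest deposited value is 3, and no label explains this floor. Of 45101 probe sets, 64 controls were left out, and 34945 of the rest name 1 gene in GEO's platform annotation. For 34741 of these the gene was found in NCBI's gene table (GRCm38.p6) and its symbol was taken from there, whether or not it differed.

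Values were quantile normalized across the 6 arrays, with the floor kept. Each of 18193 genes was taken at its probe set with the highest mean, and a second fit covered all 45037 probe sets. Lig4mut and WT were compared with limma 3.58.1 (R 4.3.3; moderated statistics, two-sided), Benjamini-Hochberg adjustment over the whole table, a threshold of 0.05 and no filter. An exact permutation test of 3 arrays against 3 gives at best p = 0.1, so none was run. Arrays have no depth, and their number limits the precision. The fit was tested on simulated data with normal noise, the same SD in both genotypes and no floor. It therefore does not show how the fit behaves with the unequal SD and the floor of these data.

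The members, lists and tests were chosen with earlier results of these data known. Members with an unadjusted p under 0.05 at either level are given by array. Klhl13, Klhl41, the relatives of Klhl4 and the further members given by array were picked after their values were seen, as were Ninl and the muscle markers named. Promoter sequences are from RefSeq, and figures were drawn with matplotlib 3.10.9.

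Alternatives were no further scaling, median centring, cyclic loess, a replicate block, single arrays left out, a filter at the 40th percentile of mean level, a variance trend with robust moderation, a covariate of sex-linked genes and averaged probe sets. Deviations of same-numbered arrays from their genotype's mean correlated at 0.0487, 0.0124 and -0.0229. Values near 0 in so few arrays cannot exclude a pairing, and the labels do not say whether the numbers pair the arrays.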

Additional observations from a re-analysis of the deposited data

How the results depend on the processing

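Of the 12 members given by rule, 8 kept the sign of their difference under every alternative that gave a value. These were all 14 for Klhl7, Klhl21, Klhl25 and Klhl36, while Klhl4, Klhl30, Klhl33 and Klhl40 have no value with dim genes left out, nor has Klhl15. The alternatives reuse the same arrays that gave these members an unadjusted p under 0.05, so a kept sign is no independent check. Klhl4, whose level chose the family, is counted among the 8 as a description only. The share of all genes that kept their sign is not given here. The remaining members changed sign. With probe sets averaged Klhl11 was at 0.307, Klhl15 at -0.42, Klhl2 at -0.691 and Klhl28 at -0.396, since their probe sets disagree. Over the arrays left out in turn Klhl15 ran from -0.41 without Lig4mut replicate 1 to 1.13 without Lig4mut replicate 3, and Klhl2 from -0.139 without Lig4mut replicate 2 to 1.47 without Lig4mut replicate 3. The adjusted threshold is not read for Klhl4, whose level chose the family. None of the other 11 passed it under any alternative. Klhl4 was at -2.53 with its probe sets averaged and between -4.75 and -4.34 under the others.

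Klhl4 chose the family and is 1 of the members counted here except where dim genes are left out. Members of 33 at an unadjusted p under 0.05 numbered 6 (19.7% of all genes passed), or 5 without Klhl4, and 3 as deposited (12.2%), or 2 without it. With genes under the 40th percentile left out there were 2 of the 20 that remained (13.3%). At the level of probe sets the 12 (17.6% of all) became 7 as deposited (13.1%) and 4 of 36 with dim ones left out (13.4%). Members without overlap numbered 8 (26.7% of all genes), and 4 as deposited (18.5%), 5 with cyclic loess (20.5%) and 4 of 20 with dim genes left out (21.6%). Of the CUL3 list, 4 became 7 with the replicate number as a block (a replicate block, under which 5 members remained under that p).

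With single arrays left out, the counts ran from 4 to 8 members (12.6% to 22.5% of all genes), 8 to 17 probe sets (12.3% to 20.2%), 8 to 15 members without overlap (33.0% to 41.1%) and 3 to 11 genes of the CUL3 list. The list had 11 without Lig4mut replicate 1 and 8 without Lig4mut replicate 2. Members without overlap numbered 15 without Lig4mut replicate 1 (41.1% of all genes). Leaving out any other single array gave 8 to 12 members (33.0% to 37.8% of all genes). Separation is easier with fewer arrays, whichever array is left out. The cause of the changes was not tested. Separation of arrays was not recomputed with the block, the variance trend or the covariate, which leave the values as they are.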
